A study of Mus musculus with 4 samples.

Results

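Chemokines are small secreted proteins that steer leukocytes along concentration gradients, and their receptors are G protein-coupled receptors on the cells that respond. They were examined in mouse liver through every non-control oligonucleotide probe of the arrays whose gene name in the files begins with Ccl, Cxcl, Ccr or Cxcr and a digit, with Cx3c, or with Xcl1 or Xcr1. The unrelated gene Ccrn4l was left out. This gave 67 of 41174 probes, for 51 genes: 20 CC ligands, 13 CXC ligands, the ligands Cx3cl1 and Xcl1, 11 CC receptors, 3 CXC receptors, and the receptors Cx3cr1 and Xcr1. The names are those of the array's design, so Cxcl4 is the gene now called Pf4 and Cxcl7 is Ppbp, and members known on the array by older names (Cxcr1, Cxcr2, Cxcr5, Cxcl3 and Cxcl17) fall outside the selection.

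CC and CXC chemokines are named for the spacing of their first cysteines. As a broad rule, CC ligands such as Ccl2 and Ccl5 draw monocytes and T cells, CXC ligands that bind Cxcr2, such as Cxcl1 and Cxcl5, draw neutrophils, and the ligands of Cxcr3 draw activated T cells and NK cells. In liver these proteins come from hepatocytes, Kupffer cells (the resident macrophages), recruited macrophages, endothelial and stellate cells, and in fatty liver the Ccl2 and Ccr2 axis is known for bringing in monocytes.

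All mice were C57BL/6 males kept on a high-fat diet and injected intraperitoneally at 25 mg/kg, 2 times a week for 4 weeks. The 4 control mice (numbers 1, 2, 4 and 5) received a scrambled antisense oligonucleotide (ASO; such oligonucleotides pair with a transcript to lower it) and the 4 mice labelled Plin2-ASO (6, 7, 9 and 10) a Plin2 ASO, against the lipid droplet protein perilipin 2. Arrays 1 to 4 each compared 1 control liver, labelled red with Cy5, with 1 liver labelled Plin2-ASO, in green with Cy3, without a dye exchange, so dye and treatment cannot be told apart for a single probe. Animal ages are not given in the sources used here. A log2 ratio is positive where the liver labelled Plin2-ASO was higher.

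The target of the oligonucleotide checks the labels. Plin2 had a normalized log2 signal of 13.96, 13.89, 14.32 and 13.71 in the livers labelled Plin2-ASO on arrays 1 to 4, against 13.71, 13.73, 13.49 and 13.34 in the control livers. Its mean log2 ratio was 0.40 ± 0.15 (SE, n = 4; limma adjusted p = 0.156), so the targeted transcript was not lower in the livers carrying its label. Every direction given here rests on the dyes as labelled, and would be the opposite if the labels were exchanged. Array 3 stood apart from the other arrays: its ratios correlated with theirs across genes at a mean r of 0.33, against 0.51 to 0.65, and 7.61% of its spots were outlier spots, against 1.5% to 3.83%. Counts of calls are therefore given with and without it, as is each member whose call turned on it. Of the hepatocyte markers, 7 were tested and Apoa1 (mean log2 ratio -0.20) and Alb (-1.70, adjusted p = 0.00172) had the highest signals.

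Not all chemokine genes were measurable in these livers. Of the 67 probes, 34 passed the scanning software's flag for a signal well above background in all 8 readings (4 arrays in each channel), 7 in none, and the rest in some. By gene, 27 of 51 had a probe above background in every reading. Ccl1, Ccl20, Ccl22 and Cxcl13, ligands of Ccr8, Ccr6, Ccr4 and Cxcr5, were never well above background. A further 7 genes missed the requirement of 3 arrays in 1 channel. Of these, Ccl11, Ccl8, Ccr10, Ccr1l1 and Ccr8 passed the flag on 1 or 2 arrays in each channel, Ccr4 on 1 control array and Cxcl7 on 2 arrays of the livers labelled Plin2-ASO. The other 40 genes, 28 ligands and 12 receptors, were tested.

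The filter was not neutral between the groups. By the probe used for each of the 40 tested genes, 28 passed it through both channels, 11 through the control channel alone and 1, Cxcl2, through the Plin2-ASO channel alone. The 11 were Ccl3, Ccl4, Ccl7, Ccr1, Ccr3, Ccr7, Cx3cr1, Cxcl5, Cxcl15, Cxcr3 and Xcl1. Ccl7 also had a probe above background on all arrays in both channels, but outlier spots left it measured on too few arrays to be used. A gene that passed only through the control channel was selected for being higher there.

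The probes of the 11 genes that passed the test are shown because the values below are the signals of these oligonucleotides. Each is 60 bases long, and the first 30 are printed in lower case, with positions in mouse build mm7 as the files list them.
Ccl25 probe, chr8:4320170-4323618: agactctcagactgaaaggaagaagtcaaa
Ccl4 probe, chr11:83734455-83734514: tattatttatgttttagttataggacgcgt
Ccl5 probe, chr11:83595699-83595758: tctcagctgctccgaggctctgcacagcaa
Ccl6 probe, chr11:83658400-83658459: aatgtgtctggttctgatacaagcttaagc
Cxcl4 probe, chr5:90744523-90744582: ctggagagttaggtatcagctgcctaaatg
Cxcl5 probe, chr5:90732453-90732512: agacatttgatgtcttcgtagtatggcata
Cxcl14 probe, chr13:55377968-55378027: cctcattagaggccgcactgtatggctgtg
Ccr1 probe, chr9:123681859-123681918: agtataagatgttatgtcaaaaaattaaat
Ccr7 probe, chr11:99253592-99253652: cttctagcttagagagatgtcccggagatt
Cxcr3 probe, chrX:97058936-97058995: gccaggcgttgtcagcactgaatgtgccca
Cxcr4 probe, chr1:128468640-128468699: aggaagaaactgaacattccagaatgtgtg
The share of G and C in these probes ran from 21.7% for Ccr1 to 50.0% for Cxcl14. The Ccl25 probe spans a splice junction by its coordinates.

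In all, 11 members passed the limma test at an adjusted p of 0.05 over all genes, 1 higher (Ccl25) and 10 lower (Ccl4, Ccl5, Ccl6, Cxcl4, Cxcl5, Cxcl14, Ccr1, Ccr7, Cxcr3 and Cxcr4) in the livers labelled Plin2-ASO. That is 11 of 40, where the same rule called 9.76% of all 18040 genes tested, 3.69% higher and 6.08% lower. Among the 28 members above background in both channels, 5 were called lower and 1 higher, against 5.71% and 3.79% of all such genes. Of the 11 that passed through the control channel alone, 5 were called lower, against 14.2% of all such genes. With a filter on the mean signal, which does not look at the difference, 11 of 47 members were called, 10 of them lower, where 8.04% of all genes were called and 5.00% called lower. The median log2 ratio of the 28 members above background in both channels was -0.18, against -0.02 over all such genes. In whole tissue, fewer cells of a type and less RNA per cell cannot be told apart.

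Of the 15 CC ligands tested, 3 fell, 1 rose and 11 did not pass, and the 12 above background in both channels had a median log2 ratio of -0.31. Ccl6, a mouse CC chemokine made by macrophages and other myeloid cells that binds Ccr1, had log2 signals of 12.51, 12.69, 12.98 and 13.09 in the livers labelled Plin2-ASO and 14.70, 15.02, 14.09 and 13.92 in the control livers. The groups did not overlap, and the livers labelled Plin2-ASO of arrays 1 and 2 lay farthest below their controls. The mean log2 ratio was -1.62 ± 0.27 (SE, n = 4), 3.07-fold lower, with an adjusted p of 0.0144.

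Ccl4 (MIP-1 beta), which activated macrophages and lymphocytes secrete, had log2 signals of 7.12, 7.18, 8.03 and 8.20 in the livers labelled Plin2-ASO, well above background on 2 of 4 arrays, and 9.08, 9.18, 8.70 and 10.06 in the controls. Every liver labelled Plin2-ASO was below every control liver, and array 3 showed the smallest step, a log2 ratio of -0.67 against -1.86 to -2.005 on the other arrays. Its mean log2 ratio was -1.62 ± 0.24 (SE, n = 4), 3.08-fold lower (adjusted p = 0.00954).

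Ccl5 (RANTES), which T cells, NK cells and macrophages secrete and which binds Ccr1 and Ccr3, had log2 signals of 11.26, 11.23, 11.03 and 11.92 in the livers labelled Plin2-ASO and 12.08, 12.17, 12.28 and 12.13 in the controls. The control livers lay close together and the liver labelled Plin2-ASO of array 4 came nearest to them. The mean log2 ratio was -0.80 ± 0.18 (SE, n = 4; 1.75-fold lower, adjusted p = 0.0393). A second Ccl5 probe had log2 ratios of -1.05, -0.75, -0.18 and -0.36, negative on all 4 arrays, with an adjusted p of 0.0775 when each kept probe was tested by itself.

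Ccl25 (TECK) was the CC ligand that rose. It is known for drawing Ccr9-bearing T cells to the thymus and small intestine. Its log2 signals were 8.57, 9.40, 8.59 and 8.94 in the livers labelled Plin2-ASO and 7.74, 8.16, 7.71 and 8.16 in the controls. Here every liver labelled Plin2-ASO was above every control liver, with ratios between 0.78 and 1.24. The mean log2 ratio was 0.93 ± 0.14 (SE, n = 4), 1.91-fold higher, with an adjusted p of 0.00962. Another Ccl25 probe was flagged as an outlier on all 4 arrays and gave no value, and the remaining one was not kept, with log2 ratios of 0.26, 0.29, 0.05 and 0.11.

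Of the 11 other CC ligands tested, the 9 above background in both channels had mean log2 ratios from -0.53 for Ccl19 to 0.69 for Ccl21c. Ccl9, a ligand of Ccr1, had log2 signals of 11.88, 11.91, 12.18 and 11.65 in the livers labelled Plin2-ASO and 12.56, 12.49, 12.11 and 12.31 in the controls. The groups overlapped through array 3, the array on which the liver labelled Plin2-ASO was not lower, and the mean log2 ratio was -0.46 ± 0.17 (adjusted p = 0.130). Without array 3 the mean of Ccl9 was -0.64 and passed (adjusted p = 0.00507). Ccl3 (MIP-1 alpha), which binds Ccr1, did not pass the background flag in any liver labelled Plin2-ASO (6.56, 6.62, 7.22 and 6.87) and passed it in 3 of 4 controls (7.43, 7.53, 7.18 and 7.86). Only a bound can be given for it: in these livers the control mean was at least 1.18-fold higher. The adjusted p of 0.0750 did not pass. Without array 3 the bound was 1.32-fold and Ccl3 passed (adjusted p = 0.00108). Without array 4 the bound was 1.04-fold (adjusted p = 0.206). A bound sets the mean of the brighter group against the dimmer group's mean of, per array, the higher of the probe's own signal and the lowest signal well above background. Bounds describe the livers measured and carry no sampling error.

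Ccl2 (MCP-1), the ligand of Ccr2, is singled out after its values were seen because it was printed at 10 spots on each array. Its log2 ratios were -0.82, -0.72, -0.49 and 0.11, with a standard deviation between spots of 0.26, 0.14, 0.05 and 0.10. The mean of -0.48 ± 0.18 did not pass (adjusted p = 0.145). The values of the remaining CC ligands on each array, like those of Cxcl2, Cxcl10, Cxcl11, Cxcl15, Cxcl16 and Ccr2, were also chosen for print after they were seen. Ccl24, an eosinophil attractant binding Ccr3, had a mean of -0.47 ± 0.17 on its brighter probe (ratios of -0.65, -0.90, -0.09 and -0.25; adjusted p = 0.127), and one of -0.60 without array 3 (adjusted p = 0.0170). Its second probe had log2 ratios of -1.11, -1.19, -0.59 and -0.71 and passed when tested by itself (adjusted p = 0.0133). Ccl19, a Ccr7 ligand, had a mean log2 ratio of -0.53 ± 0.15 (adjusted p = 0.0715) and ratios of -0.42, -0.78, -0.72 and -0.19, and without array 3 its mean was -0.46 (adjusted p = 0.0381). Its second probe went the other way on array 3, with ratios of -0.67, -1.23, 0.36 and -0.12 (adjusted p = 0.322 by itself). The Ccl7 probe used, above background in 1 liver labelled Plin2-ASO, had a mean of -0.49 ± 0.25 (adjusted p = 0.253). Its log2 ratios were -1.25, -0.61, 0.39 and -0.50 on arrays 1 to 4, and its mean was -0.79 without array 3 (adjusted p = 0.00907). A second Ccl7 probe was above background on all 4 arrays in each channel but was an outlier on 2 of them. It had log2 ratios of -0.35 and 0.02 on arrays 2 and 4, nearer 0 than the probe used. Ccl21c, a ligand of Ccr7 as well, had log2 ratios of 0.46, 0.42, 1.72 and 0.17 and did not pass (adjusted p = 0.136). The Ccl19, Ccl21 and Ccl27 genes have near-identical copies in the mouse genome, so the copy behind these signals is uncertain. Ccl12 had log2 ratios of -0.50, -0.37, 0.38 and -0.16 and Ccl17 had -0.16, 0.27, -0.56 and 0.56. Ccl27 had -0.09, -0.21, 0.54 and -0.66, and Ccl28 had 0.17, 0.14, -0.07 and 0.09. Their means lay between -0.16 and 0.08.

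Of the 11 CXC ligands tested, 3 fell, and the 8 above background in both channels had a median log2 ratio of -0.18. Cxcl5, a neutrophil attractant acting through Cxcr2, passed the background flag in all 4 control livers (8.52, 9.08, 8.55 and 9.15) and in no liver labelled Plin2-ASO (6.95, 6.30, 7.31 and 7.01). The groups did not overlap. It was at least 2.95-fold lower, with an adjusted p of 0.00598. Cxcl5 was the called member that kept its call under each of the 19 alternatives run for it, with adjusted p values up to 0.0293. It had passed the filter through the control channel alone. A strict filter, requiring a signal above background in all 8 readings, left it untested.

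Cxcl4 (platelet factor 4), stored in platelets and made by some macrophages, had log2 signals of 9.03, 8.81, 10.20 and 8.91 in the livers labelled Plin2-ASO and 10.73, 11.39, 10.27 and 11.33 in the controls. On array 3 the paired livers nearly met, with a log2 ratio of -0.07, while arrays 1, 2 and 4 had -1.70, -2.59 and -2.42. The mean was -1.69 ± 0.39 (SE, n = 4), 3.24-fold lower (adjusted p = 0.0393). Without array 3 it was -2.24, with an adjusted p of 1.93e-04.

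Cxcl14, a chemokine of epithelia and stroma whose receptor is not settled, had log2 signals of 9.21, 8.54, 9.29 and 8.81 in the livers labelled Plin2-ASO and 9.68, 10.27, 9.87 and 10.32 in the controls. The groups did not overlap, and arrays 2 and 4 showed the larger steps. The mean log2 ratio was -1.07 ± 0.24 (SE, n = 4; 2.10-fold lower, adjusted p = 0.0360).

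Of the CXC ligands that did not pass, Cxcl12 (SDF-1), the ligand of Cxcr4 that retains stem cells and leukocytes in tissue, had log2 signals of 14.65, 14.20, 14.16 and 14.24 in the livers labelled Plin2-ASO and 14.11, 14.04, 13.73 and 14.17 in the controls. All 4 ratios were positive but the groups overlapped, with a mean of 0.30 ± 0.14 (adjusted p = 0.218). A second Cxcl12 probe had log2 ratios of 0.62, 0.50, 0.98 and 0.29, with an adjusted p of 0.0498 by itself. Cxcl1 (KC), a Cxcr2 ligand, had log2 signals of 11.03, 10.23, 10.45 and 11.70 in the livers labelled Plin2-ASO and 11.04, 11.51, 11.47 and 12.07 in the controls. The spread within each group was wide, and the mean ratio of -0.67 ± 0.22 did not pass (adjusted p = 0.110). Cxcl2, another Cxcr2 ligand, had log2 ratios of 0.15, -0.01, 0.67 and 0.23, a mean of 0.26 ± 0.15, above background in 3 livers labelled Plin2-ASO and 1 control liver.

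The interferon-gamma-inducible ligands of Cxcr3 differed between arrays. Cxcl9 (MIG), singled out after its values were seen, had log2 signals of 8.76, 9.34, 9.84 and 11.60 in the livers labelled Plin2-ASO and 8.88, 8.40, 7.72 and 9.16 in the controls. Its ratio was near 0 on array 1 and was 0.94, 2.12 and 2.44 on arrays 2 to 4, and the mean of 1.34 ± 0.40 did not pass (adjusted p = 0.0804); without array 1 it was 1.83, with an adjusted p of 0.0381. Cxcl10 had ratios of -0.56, 0.22 and 0.87 on the 3 arrays that measured it, and Cxcl11 had -0.40, -0.01, -0.58 and 0.58. Neither mean passed (0.18 and -0.10). Cxcl16, a transmembrane ligand of Cxcr6 that also acts as a scavenger receptor, had log2 ratios of -0.81, -0.52, 0.27 and 0.04, a mean of -0.25 ± 0.20, and a second probe with -0.88, -0.97, 0.25 and -0.46 (adjusted p = 0.170 by itself). Cxcl15 had ratios of -0.37, -0.30, 0.12 and -0.57, a mean of -0.28 ± 0.15, and -0.41 without array 3 (adjusted p = 0.0314).

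Cx3cl1 (fractalkine), the ligand of Cx3cr1, and Xcl1 (lymphotactin), the ligand of Xcr1, did not pass. Cx3cl1 had log2 signals of 8.45, 8.27 and 8.70 in the livers labelled Plin2-ASO and 8.97, 9.14 and 8.67 in the controls on arrays 1 to 3; its array 4 spot was an outlier and was dropped. Xcl1 was above background in 1 liver labelled Plin2-ASO (7.16, 7.34, 7.49 and 7.93 over arrays 1 to 4) and in all controls (7.79, 7.94, 7.36 and 7.90). Both pairs of groups overlapped, with mean log2 ratios of -0.45 ± 0.21 and -0.27 ± 0.18.

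Of the 12 receptors tested, 4 fell (5 at an unadjusted p under 0.05). Of these 4, Ccr1, Ccr7 and Cxcr3 had passed the filter through the control channel alone, and so were selected for being higher there. Among the 7 receptors above background in both channels 1, Cxcr4, was called lower, against 5.71% of all such genes. Their median log2 ratio was -0.16. Cxcr4, the receptor of Cxcl12 on many leukocytes and stem cells, had log2 signals of 8.19, 8.51, 8.54 and 8.18 in the livers labelled Plin2-ASO and 9.499, 10.30, 8.94 and 9.53 in the controls. The livers labelled Plin2-ASO lay close together below all controls, of which the array 3 liver was nearest. The mean log2 ratio was -1.21 ± 0.22 (SE, n = 4), 2.32-fold lower (adjusted p = 0.0198). A second Cxcr4 probe had ratios of -0.80, -1.30, -0.73 and -0.47 and also passed by itself (adjusted p = 0.0228).

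Cxcr3, the receptor of Cxcl9, Cxcl10 and Cxcl11 on activated T cells and NK cells, was above background in 1 liver labelled Plin2-ASO (log2 signals of 7.28, 7.49, 7.77 and 7.85) and in all 4 controls (8.34, 8.60, 8.02 and 8.55). The groups did not overlap. The mean log2 ratio was -0.78 ± 0.18 (SE, n = 4; 1.72-fold lower, adjusted p = 0.0363). Cxcr6, found on T cells, NK cells and NKT cells, had log2 signals of 7.78, 7.97, 8.68 and 8.17 in the livers labelled Plin2-ASO and 8.12, 8.41, 8.04 and 8.53 in the controls. Its ratio was 0.64 on array 3 and between -0.44 and -0.35 on the others, for a mean of -0.13 ± 0.20 (adjusted p = 0.733). Without array 3 the mean of Cxcr6 was -0.38 and passed (adjusted p = 0.0343).

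Among the 7 CC receptors tested 2 fell, and both had passed the filter through the control channel alone. Of the 4 above background in both channels 0 were called. Ccr1, the receptor of Ccl3, Ccl5, Ccl6 and Ccl9 on monocytes, macrophages and neutrophils, did not pass the background flag in any liver labelled Plin2-ASO (6.85, 7.19, 6.85 and 6.64) and passed it in 3 of 4 controls (7.72, 7.83, 7.17 and 7.84). The array 3 control lay just below the highest liver labelled Plin2-ASO, so the groups overlapped. Ccr1 was at least 1.302-fold lower (adjusted p = 0.0360). Ccr7, which guides dendritic cells and naive T cells to lymph nodes, did not pass the background flag in any liver labelled Plin2-ASO (6.92, 6.96, 7.43 and 7.05) and passed it in all controls (7.55, 7.83, 7.83 and 7.80). These groups did not overlap, and Ccr7 was at least 1.40-fold lower (adjusted p = 0.0279).

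Ccr2, the Ccl2 receptor of inflammatory monocytes, fell short of the threshold. Its log2 ratios were -1.04, -1.39, 0.03 and -1.10, for a mean of -0.88 ± 0.23 (adjusted p = 0.0611), and without array 3 the mean was -1.18 (adjusted p = 6.01e-04). Its second probe had ratios of -0.84, -0.81, 0.13 and -0.73, the same pattern over arrays. Ccr3, an eosinophil receptor, did not pass the background flag in any liver labelled Plin2-ASO (7.19, 7.26, 6.92 and 6.65) and passed it in 3 controls (7.41, 7.42, 7.37 and 6.71), which allowed no fold; the groups overlapped and it did not pass (adjusted p = 0.327).

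Ccr6, the receptor of Ccl20, had log2 signals of 9.52, 8.96, 8.78 and 9.77 in the livers labelled Plin2-ASO and 9.27, 8.90, 9.94 and 9.504 in the controls. Only array 3 had the liver labelled Plin2-ASO below its control, with a ratio of -1.16. Ccr9, the Ccl25 receptor, had log2 signals of 9.06, 8.79, 8.44 and 9.30 in the livers labelled Plin2-ASO and 9.11, 8.85, 8.84 and 9.43 in the controls. Ccr9 was slightly lower on each array without passing, with a mean of -0.16 ± 0.13 (adjusted p = 0.471). Cx3cr1, on patrolling monocytes and some macrophages, had log2 signals of 7.29, 7.24, 7.88 and 7.995 in the livers labelled Plin2-ASO and 7.63, 7.81, 7.98 and 8.03 in the controls. Xcr1, on cross-presenting dendritic cells, had 9.65, 9.71, 9.01 and 10.36 against 9.62, 9.78, 10.06 and 10.08. For both the groups overlapped, with means of -0.26 ± 0.14 and -0.20 ± 0.22. A second Cx3cr1 probe had ratios of -0.35, -0.57, -1.01 and -0.13 (adjusted p = 0.101 by itself).

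Levels of the groups did not overlap for 10 of 40 members, the called members other than Ccr1, and for 17.8% of all genes tested. Ccl4, Cxcl5, Ccr7 and Cxcr3 among them had passed the filter through the control channel alone. They were selected for being higher there, so this count leans toward separation and nothing is concluded from it. The result depended on which arrays were in the fit. Without array 3, 19 of 38 members passed, all 11 called members among them, where 33.4% of all genes did. The other 8 were Ccl3, Ccl7, Ccl9, Ccl19, Ccl24, Cxcl15, Ccr2 and Cxcr6, all lower. Of the 19, Ccl3, Ccl4, Ccl7, Cxcl5, Cxcl15, Ccr1, Ccr7 and Cxcr3 had passed the filter through the control channel alone. This count too therefore leans toward lower values, and the 33.4% is not a share over genes selected that way. For the called members above background in at least 1 liver of each group, the mean log2 ratios were then 0.95 for Ccl25, -1.94 for Ccl4, -0.66 for Ccl5, -1.78 for Ccl6, -2.24 for Cxcl4, -1.24 for Cxcl14, -0.96 for Cxcr3 and -1.48 for Cxcr4. Without array 2 they were 0.83, -1.49, -0.76, -1.38, -1.40, -0.85, -0.67 and -1.02, in the same order. Of these members, Ccl4 and Cxcr3 had passed the filter through the control channel alone. Without array 3, Cxcl5 was at least 3.26-fold lower, Ccr1 at least 1.51-fold and Ccr7 at least 1.43-fold. Without array 4 these bounds were lower, at 2.62-fold, 1.19-fold and 1.32-fold. Without array 1, 2 passed (Cxcl5 and Cxcl9), and without array 2, 1 (Cxcl5), where 2.14% and 2.18% of all genes did. Without array 4, 6 passed (Ccl25, Ccl4, Ccl5, Ccl6, Cxcl5 and Cxcr4), where 6.57% of all genes did. With array 1 or 2 left out, the adjusted p of the other 10 called members lay between 0.0576 (Ccl4) and 0.214 (Cxcr3). No called member changed sign in any alternative run.

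Ligands and the receptors they are known to bind were set side by side, with no test. Of 36 such pairs set out here, 22 had both partners tested, and in 16 both means were below 0. In 2 pairs, Ccl5 with Ccr1 and Ccl6 with Ccr1, both partners were called lower. Single means were below 0 for 9707 of all 18040 genes tested. Genes recur across the pairs. The receptors Ccr1, Ccr3, Ccr7, Cxcr3 and Cx3cr1 and the ligands Ccl3, Ccl7 and Xcl1 passed the filter through the control channel alone. They were selected for being higher there, so the pair counts lean toward lower values. Where the receptor was called, the ligand did not always move with it: Cxcr4 had a mean of -1.21 beside 0.30 for Cxcl12, and Cxcr3 -0.78 beside 1.34, 0.18 and -0.10 for Cxcl9, Cxcl10 and Cxcl11. Ccl25, at 0.93, stood beside -0.16 for Ccr9. The receptor of Cxcl5, Cxcr2, was above background on every array under its older name Il8rb, but too many of its spots were outliers for a test.

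Several members lie next to each other in the genome. On chromosome 11, between 83595699 and 83734514 in mm7, the 5 genes Ccl5, Ccl9, Ccl6, Ccl3 and Ccl4 were all tested, and 3 were called lower. In the neighbouring cluster with Ccl2, Ccl7, Ccl11, Ccl12, Ccl8 and Ccl1 (chromosome 11, 82118723 to 82258468) 3 genes were tested and 0 passed (limma; 1 lower at an unadjusted p under 0.05). On chromosome 5, between 90732453 and 90894807, Cxcl5 and Cxcl4 were called lower among 5 tested genes and Cxcl2 had a mean above 0. The Cxcl9, Cxcl10 and Cxcl11 cluster lies farther along chromosome 5 (92310412 to 92348495). The receptor cluster on chromosome 9 (123499521 to 123827765) had 6 tested genes, of which Ccr1 was called. Over all genes tested 6.08% were called lower, and 14.2% of those that passed the filter through the control channel alone. In these clusters Ccl3, Ccl4, Ccl7, Cxcl5, Cxcl15, Ccr1 and Ccr3 passed it that way. Whether the neighbours differ from other genes was not tested.

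Promoters were searched for the members with an entry in the RefSeq promoter table used here, in build GRCm38.p6, over the 250 bases before the transcription start. 38 of 51 members had such a window, 42 windows in all, and 6 of the 10 members called lower were among them. The motifs were the NF-kappaB consensus, the interferon-stimulated response element core (GAAA, any 2 bases, GAAA), the STAT motif TTCNNNGAA, which reads alike on both strands, and a PU.1 core, GAGGAAGT, all on both strands. They were found in 7, 3, 4 and 2 of the member windows, and in 3.90%, 2.98%, 7.02% and 2.44% of all 32851 windows. A match is a match of letters and no measured binding. The windows of the 3 members called lower that held a match, and of Cxcl10, which was not called, are shown for comparison, 5′ to 3′ on the strand of the gene with matches in capitals.
Cxcl4 promoter, chr5:90772185-90772434, plus strand: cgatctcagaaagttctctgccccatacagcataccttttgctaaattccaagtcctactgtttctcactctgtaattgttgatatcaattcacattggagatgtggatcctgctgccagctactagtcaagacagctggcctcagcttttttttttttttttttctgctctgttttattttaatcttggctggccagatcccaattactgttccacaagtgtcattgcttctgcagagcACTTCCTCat
Cxcr3 promoter, chrX:101734148-101734397, minus strand: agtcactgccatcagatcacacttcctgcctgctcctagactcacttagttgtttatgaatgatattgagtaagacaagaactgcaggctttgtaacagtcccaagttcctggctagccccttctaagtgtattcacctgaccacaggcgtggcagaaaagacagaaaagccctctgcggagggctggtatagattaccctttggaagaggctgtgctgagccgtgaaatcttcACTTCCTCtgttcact
Cxcl14 promoter, chr13:56296552-56296801, minus strand: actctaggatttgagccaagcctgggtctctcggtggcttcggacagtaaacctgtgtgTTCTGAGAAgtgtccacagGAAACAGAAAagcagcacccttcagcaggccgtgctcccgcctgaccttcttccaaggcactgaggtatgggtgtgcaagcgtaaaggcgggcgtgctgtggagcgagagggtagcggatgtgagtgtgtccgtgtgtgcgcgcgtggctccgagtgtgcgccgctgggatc
Cxcl10 promoter, chr5:92348890-92349139, minus strand: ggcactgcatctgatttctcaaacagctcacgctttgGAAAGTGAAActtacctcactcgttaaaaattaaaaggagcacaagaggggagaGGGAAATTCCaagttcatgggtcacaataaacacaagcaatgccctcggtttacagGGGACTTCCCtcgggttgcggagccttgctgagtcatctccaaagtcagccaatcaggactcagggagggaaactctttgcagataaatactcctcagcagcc
The capitals mark the PU.1 core on the opposite strand in Cxcl4 (positions -10 to -3 from the start) and Cxcr3 (-16 to -9), the STAT motif (-191 to -183) and response element (-172 to -163) in Cxcl14, and the response element (-213 to -204) with NF-kappaB matches (-159 to -150 and -103 to -94) in Cxcl10. Cxcl1 and Cxcl2, which were not called, held NF-kappaB matches too. No match of these motifs lay in the windows of Ccl6, Ccr1, Cxcr4 or Ccl25.

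Markers of the cells that make or carry these proteins moved as well, and their part in the chemokine values was not tested. Counts here stand beside 9.76% of all genes called, and beside 2.14%, 2.18%, 33.4% and 6.57% with array 1, 2, 3 or 4 left out. Of 8 macrophage markers 5 fell and 1, Cd163, rose, with a median log2 ratio of -0.95; the 2 with the highest signal were Lyz2 (-1.97) and Mpeg1 (-0.64). Their summed signal ranged from 29565 to 47349 in the livers labelled Plin2-ASO and from 65828 to 136546 in the controls, without overlap. With 1 array left out, 1 to 6 macrophage markers fell, and Cd163 rose in each fit. All 7 markers of lipid-laden macrophages fell, with a median of -2.28, Spp1 (-2.22) and Lgals3 (-2.80) among them, and summed signals of 15398 to 20453 against 73018 to 131009. Without array 1 and without array 2, 5 of the 7 fell. The Kupffer cell list was divided: 3 of 7 rose and 2 fell, with Cd5l at -1.02 and Nr1h3 not past the test (adjusted p = 0.993), and the summed signals overlapped (49347 to 87589 against 68963 to 108682). The 3 that rose, named after their values were seen, were the lectin Clec4f (2.37, on 3 arrays), the complement receptor Vsig4 (2.52) and the scavenger receptor Marco (2.48, on 3 arrays), larger changes than the falls of Cd5l and Id3 (-0.85). Neither fall passed without array 1 or without array 2, while Vsig4 passed with any 1 array left out.

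Of 6 monocyte markers 0 passed (limma; 3 lower at an unadjusted p under 0.05), Fn1 was at -0.10 and Ly6c1 at -0.54, with a median of -0.49 and overlapping sums (22766 to 37328 against 30256 to 36796). Fn1, which hepatocytes also make in quantity, carried most of that sum; without it the sums were 3646 to 7426 against 4948 to 8976 and still overlapped. The lowest means were those of Ccr2 (-0.88) and Plac8 (-0.86), named after they were seen, and without array 3, 4 of the 6 fell, Ccr2 among them. Ccr2 is also 1 of the chemokine receptors examined here, so the monocyte list is not independent of them. Endothelial markers fell in 5 of 10 (median -0.62; Stab1 -1.01 and Egfl7 -1.04; sums 13693 to 18782 against 22915 to 32949). None of the 10 passed without array 1 or without array 2 (lowest adjusted p 0.0878 and 0.0772), and 9 fell without array 3. Stellate cell and fibroblast markers fell in 5 of 9 (median -1.01; Dcn -1.39 and Col3a1 -2.61; sums 44771 to 61202 against 105037 to 173888), and 2 to 6 fell with 1 array left out. Lymphocyte lists lay nearer 0: of 6 T cell markers Zap70 (0.78) rose and the median was -0.05, with Cd8b1 at -0.08, and sums of 5898 to 6716 against 4757 to 6269. Of 5 NK cell markers 0 passed (limma; 1 lower at an unadjusted p under 0.05), with a median of 0.07, Nkg7 at -0.72 and Ncr1 at 0.07, and sums of 1504 to 2050 against 1727 to 2324. Of 8 neutrophil markers S100a9 (-1.42) fell and Mpo (0.22) did not pass, the median was -0.15 and sums were 5628 to 7058 against 7200 to 8406. Of 7 B cell and plasma cell markers 2 fell (median -0.11), and of 5 dendritic cell markers 0 passed (limma; 1 lower at an unadjusted p under 0.05; median -0.08). Of 5 eosinophil and mast cell markers 0 passed by either p (median 0.19). Of 6 cholangiocyte markers 2 fell (median 0.04), and of 6 adipocyte markers Cfd (3.78) rose, with a list median of 0.14 that was 1.82 on array 3. The calls among the T cell, neutrophil and B cell markers did not pass without array 1 or without array 2, and that of Cfd did not without array 2. On array 3 the medians of the macrophage, stellate, endothelial and monocyte lists (-0.31, -0.44, -0.37 and 0.23) were nearer 0 than those of arrays 1 and 2 or above it, as was that of the chemokine genes (-0.08, against -0.48 and -0.57). Not all lists did so. The hepatocyte, T cell and cholangiocyte medians were lower on array 3 (-0.25, -0.44 and -0.58) than on array 1 (-0.08, -0.08 and 0.30) or array 2 (0.23, 0.19 and -0.04). On array 4 the chemokine median was -0.20, and those of the macrophage, stellate, endothelial and monocyte lists were -0.53, -1.22, -0.82 and -0.26. Links between these medians were not tested.

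Genes that act with chemokines were counted from 6 lists. Over all lists 20 of 105 tested genes passed, 17 lower and 3 higher, where 6.08% and 3.69% of all genes did. Of 8 regulators of G protein signalling, which shorten the signal of chemokine receptors, 3 fell: Rgs1 (log2 ratio -2.45), Rgs2 (-1.70) and Rgs10 (-0.82), with array 3 nearest 0 for each. Among 39 genes of signal transduction 4 fell and 1 rose, with Rac2 (-1.17), the leukocyte GTPase behind cell migration, Arrb1 (-0.63), which desensitizes receptors, and the kinase Pak1 (-0.68) having the smallest p. In the list of inducers 4 of 26 fell, led by the lipopolysaccharide co-receptor Cd14 (-2.25), the interferon-gamma receptor chain Ifngr1 (-0.93) and the cytokine Il1a (-0.70).

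Among 21 genes of adhesion and traffic 5 fell and 1 rose. The one that rose was Dpp4, a peptidase that trims and alters several chemokines, Cxcl12 and Ccl5 among them. Its log2 ratios were 1.04, 1.00, 1.47 and 1.06, a mean of 1.14 ± 0.14 (SE, n = 4), 2.21-fold higher, with an adjusted p of 0.00512 that stayed below 0.05 with any 1 array left out. Icam2 (-1.18), an endothelial ligand of leukocyte integrins, and Cd44 (-1.58), a hyaluronan receptor, fell. Of 8 atypical and related receptors, the complement receptor C5ar1 (-0.91) fell and the formyl peptide receptor Fpr1 (0.73) rose, and of 3 further chemokine-like genes 0 passed (limma; 2 lower at an unadjusted p under 0.05). With array 1 or with array 2 left out, 1 of these list genes, Dpp4, passed in each fit, and without array 3, 43 did, where 2.14%, 2.18% and 33.4% of all genes passed.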

How the data were processed

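The authors deposited scanner output with spot intensity values, extracted with Feature Extraction 9.5.1.1 per the file headers; mean signals and median local backgrounds were used. Deposited log10 ratios (red over green, after the software's dye normalization), and the authors' series table, which equalled them as log2 ratios for all 41174 probes, served as alternatives, sign turned. Channel flags, 0 or 1, are deposited score values of the software.

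In limma 3.58.1 (R 4.3.3), background was corrected by normexp (offset 50), ratios by loess within arrays, outlier spots were set missing, and spots of a probe averaged. Probes had to be well above background on 3 of 4 arrays in 1 channel (27158 kept), and each of 18040 genes was its brightest kept probe measured on 3 arrays. Mean ratios were tested against 0 (lmFit, eBayes, two-sided), adjusted by Benjamini-Hochberg over all genes. Every adjusted p is from this kind of test. For a probe by itself, every kept probe measured on 3 arrays was tested and the adjustment ran over those probes. With an array left out, the test and its adjustment were run anew on the other arrays. Levels are log2 signals per channel after Aquantile scaling. On simulated data with 18040 genes, 51% of 100 log2 changes of 1 and 87% of 100 log2 changes of 2 were recovered, with 3 false calls. The simulated noise was drawn independently for each gene. It held no dye effect and no shift shared by genes on an array, so the false calls do not cover these.

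Values on each array are given for members past an adjusted p of 0.05, for those with only a bound, and for the 2 of highest mean signal in each class; values of other members on each array were added after they were seen. Of each list, the 3 called genes of smallest p or, for markers, the 2 of highest signal were named. Single values of 1 tested receptor are not reported here. The members and lists were chosen with earlier results of these data known. All arrays lay on 1 slide. The labels do not say how mice were paired on arrays. With 4 arrays, precision is limited by their number. Alternatives tried cover background, normalization, filters, probe choice, the model and each array left out.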

Additional observations from a re-analysis of the deposited data

Results flagged for a closer look

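For 5 of the 38 members measured on all 4 arrays, 1 array lay far from the others, and in each case it was array 3. The log2 ratio of Ccl3, which passed the background flag in no liver labelled Plin2-ASO, was 0.0401 there, against -0.998 to -0.87 on the other arrays, that of Ccl4 was -0.67, against -2.005 to -1.86, and that of Ccl9 was 0.0660, against -0.68 to -0.58. Cxcr6 had 0.64 against -0.44 to -0.35, and Ccr6 had -1.16 against 0.06 to 0.26, the one of the 5 in which array 3 lay below. Chance alone marks about 1 in 20 such groups. Over all 16128 genes measured on every array, 1204 (7.47%) had such an array, and for 921 of these it was array 3. The part of array 3's outlier spots in these values was not tested.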

How the results depend on the processing

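Of 11 called members, Cxcl5 passed in all 19 alternatives that tested it, and no called member reversed. The strict background filter did not test Cxcl5. Ccl5 and Cxcl4 each kept the call in 13 of 20 alternatives. Neither passed with the software's ratios or with the series table, where 9 members passed, or without a background filter, where 8 did. Median centring called 11 members, 9 of them shared with the main fit: Ccl5 and Ccr1 did not pass, and Ccr2 and Cxcl9 did. Against 1761 genes, 11 members and 20 list genes, trend and robust moderation gave 932, 5 and 5, array quality weights 7006, 27 and 61, an adjusted p under 0.1 gave 3012 genes, 12 list genes passed with the software's ratios and 12 with the series table, and the strict background filter 6 members. Leaving out each array gave 365 to 5882 genes, 1 to 19 members and 1 to 43 list genes. The cause was not tested. Uncalled means that changed sign were Cxcl11 (0.00701 with the software's ratios and 0.00701 with the series table; -0.330 to 0.0572 with 1 array left out), Ccr6 (0.135 with array weights; -0.283 to 0.192 with 1 array left out), Cxcl10 (-0.190 with array weights), Ccl17 (-0.149 to 0.222 with 1 array left out, -0.0533 without replicate 2), Xcr1 (-0.364 to 0.0810) and Ccl27 (-0.319 to 0.0805). The 7 probes never well above background by the software's flag were above it by 2.6 background standard deviations in most readings. Those of Ccl1, Ccl22, Ccr4 and Xcr1 were so on 4 arrays in each channel. That of Ccr3 was so on 4 Plin2-ASO and 3 control arrays, that of Ccl20 on 2 and 4, and that of Cxcl13 on 4 and 2. The software's flag was thus the stricter of these criteria. The slide as a block was not run, as all arrays lay on 1 slide. The ratio within an array already pairs 1 mouse of each group; beyond that, no paired analysis was possible because the labels give no other pairing. Using the brightest probe whether or not it was measured, an alternative chosen after seeing the data, left 11 members called. The marker counts with 1 array left out and the monocyte sum without Fn1 were also chosen then. Signals near background limit Ccl3, Ccr1, Ccr3, Ccr7 and Cxcl5 to bounds. On the probes used, Ccl4, Ccl7, Cx3cr1, Cxcl15, Cxcr3 and Xcl1 were above background in only 1 or 2 livers labelled Plin2-ASO. Their ratios rest in part on signals near background.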

Other observations

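Genes of the family that were not tested gave these values. Ccl8, a monocyte attractant, gave ratios (log2) of -0.29, -0.26, 2.53 and 0.26 over arrays 1 to 4, with 2 Plin2-ASO and 1 control reading above background. Cxcl7, the platelet basic protein, had 0.35, 0.13, 1.01 and -0.36. Ccr10, the receptor of Ccl27 and Ccl28, had 0.18, 0.31, 0.77 and 0.38. Under older names, the probes of Cxcr1, Cxcr5, Cxcl3 and Cxcl17 were not well above background on any array in either channel. The 2 probes of Cxcr2 were above background on every array, and after outlier spots were dropped 1 gave 0.83 and -0.55 on arrays 1 and 2 and the other 0.34 on array 2.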
